A study of Bos taurus with 8 samples.

Results

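RNA-Seq data were generated for 8 cattle tissues with 1 library per tissue, and the mammary/parenchyma library was compared here with the 7 other libraries. These were nucleated blood cells, ileum, uterus (intercaruncular), whole testes, frontal cortex, and from the ruminant stomach the rumen (a forestomach) and the abomasum (its glandular compartment). The study's tissues for DNA methylation came from the Hereford cow behind the cattle reference genome and from her kin, progeny among them. No treatment is named in the study. The labels of the libraries give neither the age, the sex nor the stage of lactation. In the study's list of tissues used for DNA methylation, mammary parenchyma, frontal cortex, abomasum and ileum came from juvenile females, uterus and blood cells from adult females, testes from an adult male and rumen from a male fetus. Whether the RNA came from the same animals is not given in the sources used here. With 1 library per tissue, tissue, animal and age cannot be told apart, and no test between tissues was run.

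Levels are FPKM, the number of sequenced fragments per 1000 bases of transcript, scaled to the number of mapped fragments of the library. Of the 36801 loci of the table, 24886 carried an identifier, and 23043 were compared after loci under 150 bases, mitochondrial loci and loci with a failed estimate had been left out. The difference D is log2(FPKM + 1) in mammary minus the median of log2(FPKM + 1) over the 7 others. The median D over all compared loci was 0. The mammary library was the shallowest of the 8, with 4.41 reads behind each FPKM for a 1000-base transcript, where the other libraries had 5.49 to 11.3. A floor of 3 reads was 0.680 FPKM in mammary for that length. Mammary gave the least precise levels, and the floor covers counting error only. The table holds no gene symbols, so genes were placed on the loci from the order, distances and lengths of RefSeq genes (assembly ARS-UCD2.0), which gave a symbol to 10676 compared loci. The same procedure run against a wrong chromosome gave 6.72 placements per 100, so a symbol is a placement and not an identifier of the table. Several identifiers were carried by 2090 compared loci. Of the placed genes, 966 were placed by a shared end, a step meant for loci that run over several genes. Such levels may pool more than 1 gene, and SPP1, SAA3, XDH, KRT14 and CLDN4 are among those placed so. The interval of 7609 compared loci was also given to another locus. The length of their transcripts could not be judged, and they are described apart where they matter.

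Mammary parenchyma is the glandular part of the udder. Its ducts and alveoli have an inner layer of luminal cells, which make milk, and an outer layer of contractile myoepithelial cells, and they lie in connective tissue and fat. Luminal cells secrete caseins, whey proteins, lactose and fat globules under the control of prolactin and other hormones. When milk removal stops, the alveoli regress, and lactoferrin and other defence proteins are known to increase in the secretion.

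In the mammary library the milk protein genes were the largest difference from the other tissues. Of the 8 genes listed as milk proteins, 7 were placed (all except CSN3), and all 7 were higher in mammary than in each of the 7 other libraries, where 4.01% of all compared loci were. Their median D was 8.80. CSN2, which encodes beta-casein, had an FPKM of 2912 in mammary and 0 to 3.99 in the others, with a median of 1.37. CSN1S1, encoding alpha-S1-casein, was at 2135 FPKM in mammary and at 0 to 4.82 in the others (median 0.665). CSN1S2, encoding alpha-S2-casein, was at 730 FPKM in mammary against at most 2.07, in rumen. At each of these genes the single mammary value lay far above the highest of the other tissues. On the scale of FPKM + 1 the mammary level was 583 times the next highest at CSN2 and 238 times at CSN1S2. PAEP, which encodes beta-lactoglobulin, the main whey protein of ruminants, was at 2720 FPKM in mammary. It was at 30.9 in frontal cortex, 25.2 in rumen, 3.23 in testes, 0.607 in ileum and listed at 0 in uterus, abomasum and blood cells. LALBA, encoding alpha-lactalbumin, the regulatory subunit of lactose synthase, was at 496 FPKM in mammary, 62.0 in rumen, 40.2 in frontal cortex and below 1 in the rest. For LALBA the gap to the next library was the smallest of the 7 genes (2.98 on the log2 scale). GLYCAM1, a mucin-like protein of milk, was at 164 FPKM in mammary and at most 1.03 elsewhere. LTF, encoding lactoferrin, an iron-binding defence protein of milk and other secretions, was at 7223 FPKM in mammary, 256 in abomasum, 96.1 in uterus, 37.2 in testes and 15.5 in ileum, and at 0.831 to 1.29 in the others.

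**Figure D1:**
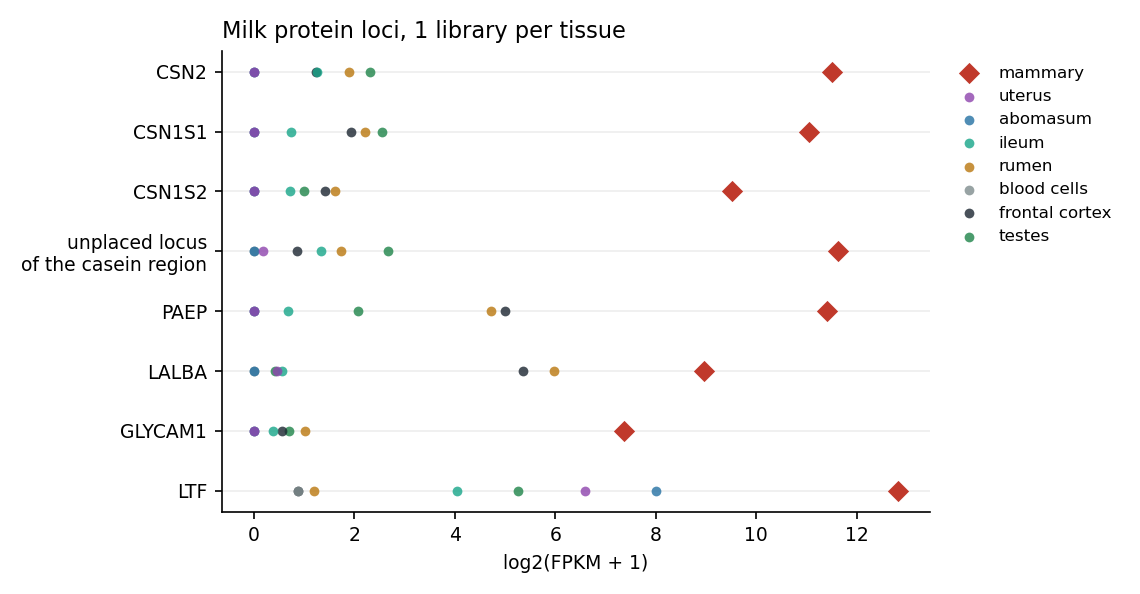
log2(FPKM + 1) of 7 placed milk protein genes and 1 unplaced locus of the casein region (rows) in each of the 8 libraries. Mammary is a red diamond and every other library a point. Mammary is the highest library at every placed gene, and LALBA and LTF are the loci at which another library comes nearest. The unplaced locus, also highest in mammary, was taken over a second with its identifier because it was higher there.

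Testes, rumen, frontal cortex and ileum held low casein values. An unplaced locus of the casein region, described next, is counted with CSN1S1, CSN2 and CSN1S2, though no gene was placed on it. The summed FPKM of these 4 loci was 8943 in mammary, 15.2 in testes, 10.7 in rumen, 6.65 in frontal cortex and 4.20 in ileum. It was 0.135 in uterus and 0 in abomasum and blood cells. The proportions differed from those in mammary, since LALBA and PAEP exceeded CSN2 in frontal cortex and rumen, whereas CSN2 exceeded both in mammary. The placed milk protein genes and the unplaced locus made up 3.41% of the summed FPKM of the compared loci in mammary. In the other libraries they made up at most 0.0366%, in abomasum, where LTF was the only one of the placed genes above 0.

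The caseins form a gene cluster on chromosome 6. Within chr6:87141556-87469068 (UMD3.1), 5 of the 9 compared loci had a D of at least 2, and all 5 were above each of the other libraries, where the shares of all compared loci were 2.45% and 4.01%. The ends of this interval were set by the outermost of the 5 loci. In order along the chromosome these were CSN1S1 (chr6:87141556-87159096), CSN2 (chr6:87179502-87188025), HSTN (chr6:87189736-87204439), CSN1S2 (chr6:87262457-87280936) and an unplaced locus at chr6:87362789-87469068. HSTN, which encodes histatherin, was at 10.4 FPKM in mammary and at most 0.232 in the others. The unplaced locus had the largest D of all compared loci, 10.78, with 3166 FPKM in mammary and 0 to 5.40 in the others. It lies between the loci placed as ODAM and LOC100848253, between which the gene table lists CSN3, CABS1, SMR3A and MUC7, and it shares its interval with 3 other loci, so that its level depends on a length that the table does not give. A second locus with the same identifier in that interval was at 0 in mammary and at 10.04 in testes. For the sums, the shares and the figures the locus higher in mammary was taken, a choice that favours mammary. Counted with the placed caseins, the unplaced locus had 35.4% of their summed FPKM in mammary, CSN2 32.6%, CSN1S1 23.9% and CSN1S2 8.16%. These shares depend on the uncertain length of that locus, and that it is a casein gene was not established. The elevated level did not extend over the whole region. STATH and ODAM, which lie between the 5 loci, were listed at 0 in mammary, as were AMBN and ENAM beyond them. JCHAIN, the joining chain of secreted antibodies, lies at the far end of the region and had 223 FPKM in mammary, where ileum had 1817.

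**Figure D2:**
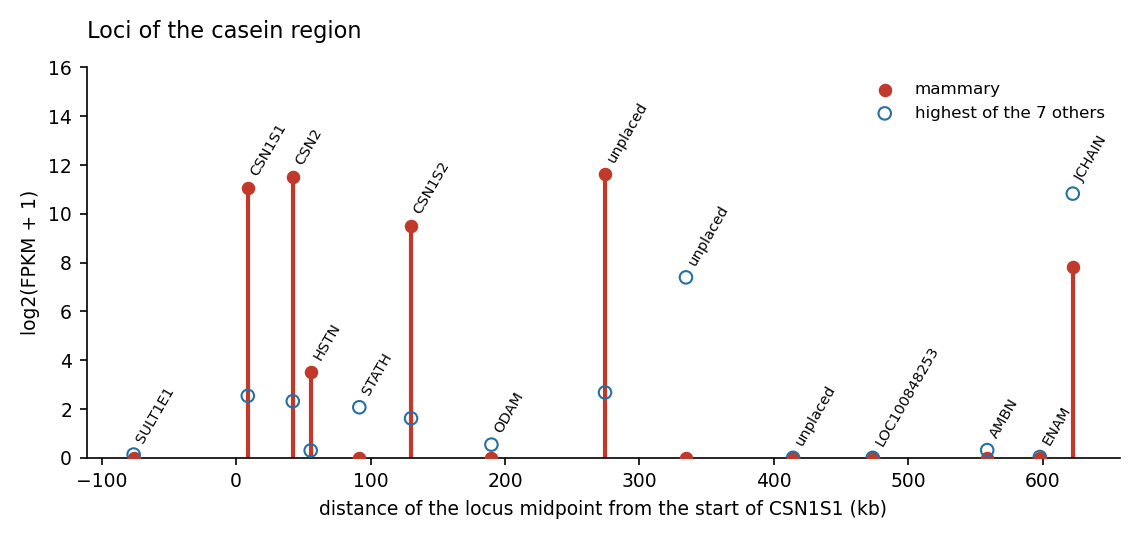
log2(FPKM + 1) of the loci of the casein region in mammary (red points on stems) and in the highest of the 7 other libraries (open circles), by the distance of the locus midpoint from the start of CSN1S1 in kb. CSN1S1, CSN2, HSTN, CSN1S2 and 1 unplaced locus are high only in mammary, and STATH and ODAM between them are at 0 there.

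LTF was the most abundant of the compared loci in the mammary library and the only placed milk protein gene among the 15 most abundant. Next came RPLP1, a protein of the ribosomal stalk, with 6960 FPKM in mammary and 1819 to 21580 in the others. EEF1A1, a translation elongation factor, had 5826 FPKM in mammary and 1343 to 11816 in the others. RPS19, a protein of the small ribosomal subunit, had 4194. The other 11 of the 15 most abundant loci were not placed, and 8 of the 15 shared their interval with another locus. One of the unplaced loci (chr23:28468651-28506317), at 6414 FPKM and so between RPLP1 and EEF1A1, lies between placed neighbours among whose genes in the table are BOLA-NC1, JSP.1 and BOLA, of the class I major histocompatibility complex. Blood cells had 12343 FPKM at that locus. At chr10:104139001-104147927, between PATL2 and TRIM69, where the gene table lists B2M (the light chain of class I molecules) and LOC783680, mammary had 3746 FPKM and blood cells 8135. The 10 most abundant loci held 9.63% of the summed FPKM of mammary and the 50 most abundant 29.3%. The 34 placed ribosomal protein genes together held 11.4%, and their median D was 0.61, with rumen the highest of the 8 libraries at 32 of them. APOE, an apolipoprotein, was at 2996 FPKM in mammary and at 4494 in frontal cortex, and at 0.2997 to 416 in the other 6.

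In total, 565 loci (2.45% of the compared loci) had a D of at least 2 with a mammary FPKM of at least 1. A level at least 1 (log2) above the next highest library was found at 193 loci (0.838%), of which 19 were listed at 0 in all 7 others. Of the 565 loci, 160 shared their interval with another locus. Several of the extreme values belonged to such loci, for example at chr10:13318875-13323526, where mammary had 1121 FPKM and every other library 0, and at chr5:95705926-95912220, with 355 FPKM in mammary and 0 elsewhere.

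Some genes of innate defence and of acute inflammation were also high in mammary. LCN2, encoding lipocalin 2, which binds bacterial siderophores, was at 1733 FPKM in mammary, 8.86 in blood cells and at most 1.86 in the rest. SAA3, a serum amyloid A protein made outside the liver, was at 1160 FPKM in mammary and 237 in uterus, with 0.541 to 53.4 in the others. A locus near it at chr29:26755008-26761836, between SAA4 and OR4D5, where the gene table lists M-SAA3.2 and 4 olfactory receptor genes, was at 1973 FPKM in mammary and 1949 in abomasum, with a median of 9.84 over the 7 others. Mammary was apart from all tissues at SAA3, whereas abomasum was close to it at the neighbouring locus and uterus (1396 FPKM) not far below. CHI3L1, a chitinase-like glycoprotein, was at 829 FPKM in mammary and 0.570 to 76.2 in the others. SPP1, which encodes osteopontin, a phosphoprotein of milk and bone, was at 1392 FPKM in mammary and 94.3 in frontal cortex, the next highest. The loci placed as SPP1 and SAA3 span 59251 and 28457 bases and each carry more than 1 identifier, so their levels may pool several genes. GP2, a glycoprotein that binds bacterial fimbriae, was at 94.5 FPKM against at most 2.44, and LBP, the lipopolysaccharide-binding protein, at 31.3 against at most 7.39.

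A list of 24 innate defence and acute-phase genes was drawn up after these values had been seen, so it adds no support. Of its 15 placed members, 9 had a D of at least 1, against 7.58% of all compared loci, none had a D of at most -1 (3.99% of all compared loci), and 5 were above all 7 others, against 4.01% (LCN2, SAA3, CHI3L1, LBP and GP2). Their summed FPKM was 4119 in mammary and 6668 in rumen. The other members included HP, encoding haptoglobin, at 11.0 FPKM against 83.9 in blood cells, CD14, a lipopolysaccharide receptor, at 14.3 with a D of -0.31, BPI, a bactericidal protein, at 1.24 against 489 in ileum, and CATHL1, a cathelicidin, which was listed at 0 in all 8 libraries. C3, the central complement component, was at 214 FPKM, below ileum (487) and abomasum (346). The neutrophil proteins S100A8 and S100A9 were at 2.85 and 7.47 FPKM in mammary, above the medians of the others (2.40 and 1.53) and far below blood cells (1509 and 621) and rumen (5827 and 802). CXCL8, a neutrophil attractant, was at 0.283 FPKM in mammary, and blood cells had 34.6.

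**Figure D3:**
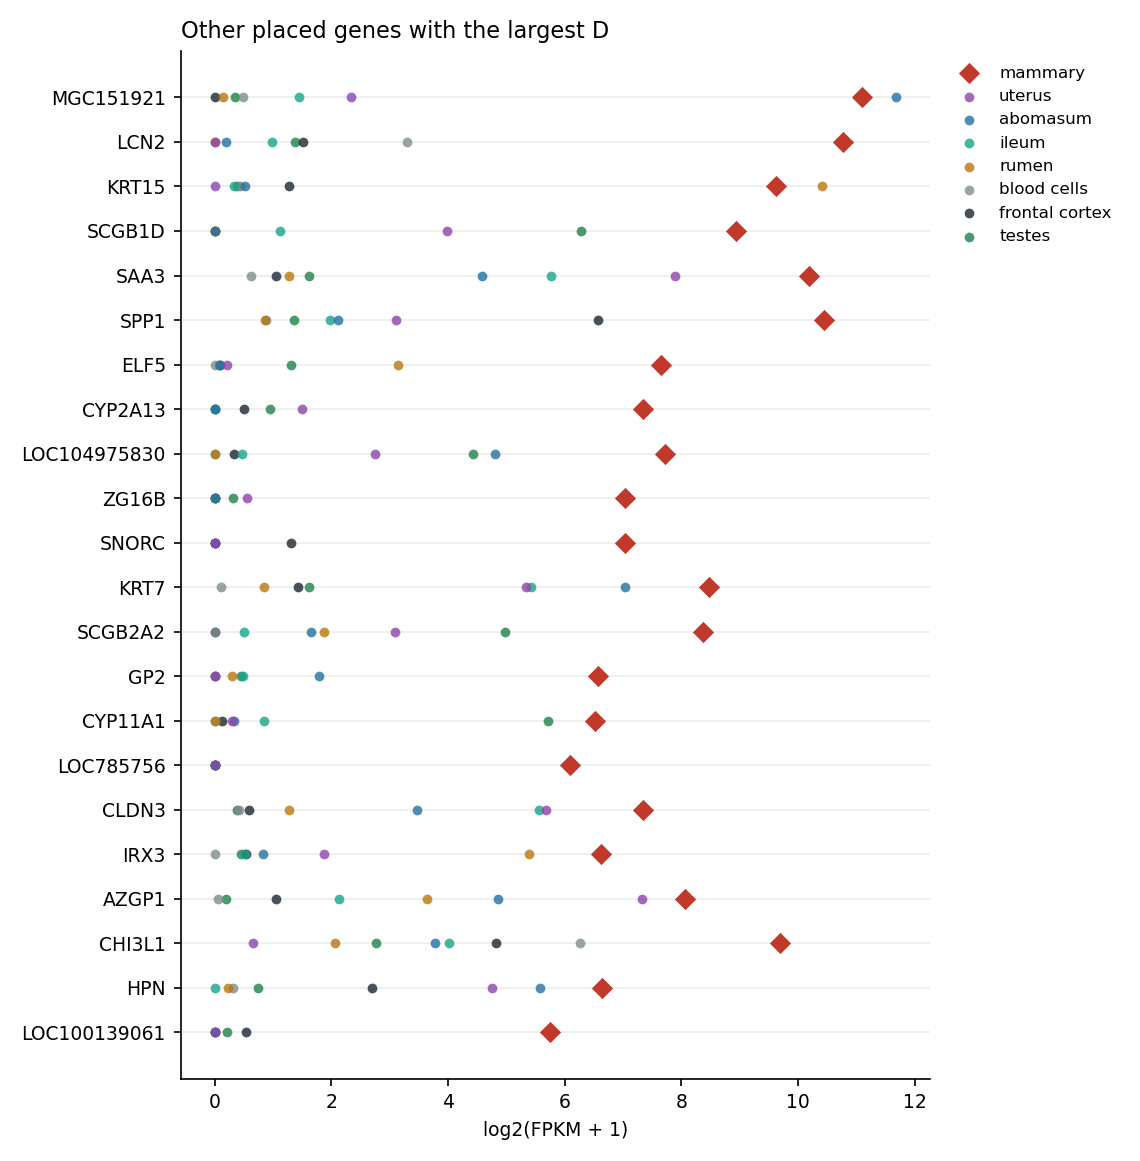
log2(FPKM + 1) in the 8 libraries for the placed genes with the largest D that are not milk proteins, from MGC151921 at the top to LOC100139061. LCN2, ZG16B, CYP2A13 and GP2 are far above every other library, whereas MGC151921 is exceeded by abomasum and KRT15 by rumen.

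Other genes with a large D included secreted proteins, transcription factors and enzymes. SCGB1D and SCGB2A2, members of the secretoglobin family of small secreted proteins, were at 487 and 328 FPKM in mammary, and the next highest library at both was testes, with 76.3 and 30.4. ZG16B, a lectin-like secreted protein, was at 130 FPKM against at most 0.462. AZGP1, a zinc-binding glycoprotein of secretions, was at 266 FPKM, and uterus had 158. MGC151921 was at 2176 FPKM in mammary and 3266 in abomasum, with a median of 0.396 over the others. Among enzymes, CYP2A13, a cytochrome P450, was at 161 FPKM in mammary and at most 1.81 elsewhere, and CYP11A1, which starts steroid synthesis from cholesterol, was at 91.2 FPKM against 51.8 in testes. SNORC, a small membrane proteoglycan, was at 130 FPKM against at most 1.49. IRX1 and IRX3, homeobox transcription factors, were at 43.2 and 97.1 FPKM, with at most 0.553 and 40.9 in the others.

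Markers of luminal epithelium, the cell type that defines the labelled tissue, were high. Of 10 listed genes, 9 were placed, 8 had a D of at least 1 (7.58% of all compared loci) and none had a D of at most -1 (3.99%). The median D was 4.57. KRT7, a keratin of simple epithelia, was at 353 FPKM in mammary, above abomasum (129), ileum (41.8) and uterus (39.3). CLDN3, a tight junction protein, was at 161 FPKM against at most 49.97, in uterus. KRT19 was at 1108 FPKM in mammary, between abomasum (1347) and ileum (851). KRT8 and KRT18, which pair in simple epithelia, were at 273 and 151 FPKM, where abomasum had 1620 and 813. CLDN4 was at 108 FPKM, and rumen had 325. Mammary ranked with the other epithelial organs, and of the 9 genes KRT7 and CLDN3 alone were above all 7 others (4.01% of all compared loci). EPCAM, an adhesion protein of most epithelia, had a D of 0.68, with 125 FPKM in mammary, 213 in ileum, 142 in abomasum and 96.6 in testes.

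Of the 10 genes for basal and myoepithelial cells, 3 were placed. KRT14, a basal keratin, was at 52.3 FPKM in mammary and at 6224 in rumen, a stratified epithelium, with at most 10.1 in the other 6. TP63, a transcription factor of basal cells, was at 6.42 FPKM in mammary, 58.7 in rumen and below 1 elsewhere. CNN1, a contractile protein of smooth muscle and myoepithelium, was at 63.0 FPKM, with rumen at 1655 and ileum at 1383. At both basal genes mammary was second to rumen. KRT15, a basal keratin not in the list, followed the same order, with 789 FPKM in mammary, 1356 in rumen and at most 1.43 in the others. Genes of stratified epithelium were low in mammary. KRT6A was at 0.198 FPKM in mammary and 6942 in rumen, and KRT4 was listed at 0, whereas DSG3, a desmosomal cadherin, was at 1.74 FPKM against 229 in rumen and at most 0.107 in the other 6.

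The hormone and growth signals of the gland were examined through a list of 17 genes, of which 9 were placed. ESR1, PGR, PRLR and GHR, the receptors of oestrogen, progesterone, prolactin and growth hormone, were not among them. The median D was 1.83, 8 of the 9 had a D of at least 1, against 7.58% of all compared loci, and none had a D of at most -1 (3.99%). ELF5, the transcription factor that directs the alveolar cell fate, had the largest D, 7.56. It was at 201 FPKM in mammary, 7.80 in rumen, 1.47 in testes and at most 0.156 in the rest. TNFSF11, encoding RANKL, through which progesterone acts on neighbouring cells, was at 9.09 FPKM in mammary and at most 0.635 in the others. These 2 genes were the only ones of the 9 that were above all other libraries (4.01% of all compared loci). STAT5A, the signal transducer downstream of the prolactin receptor, was at 49.0 FPKM in mammary and 60.1 in blood cells, and STAT5B was at 18.9 and 37.4. FOXA1, a cofactor of oestrogen receptor, was at 13.8 FPKM, with abomasum at 20.1. TBX3, a factor of gland development, was at 17.02 FPKM, with uterus at 29.9. AREG, an epidermal growth factor ligand, was at 4.71 FPKM, with testes at 29.2. IGF1R, the receptor of insulin-like growth factor, was the exception with a D of 0.53.

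The genes of milk fat synthesis stood out less than the milk protein genes. Of 17 listed genes, 7 were placed, 3 had a D of at least 1, beside 7.58% of all compared loci, and the median D was 0.94, or 0.58 over the genes placed by the strict rule alone, which asks for a span within 5% and matched neighbouring genes. FASN, the fatty acid synthase, was at 176 FPKM in mammary and 19.2 to 43.4 in the others. FASN and ACSL1 were the only 2 of the 7 placed genes above all others (4.01% of all compared loci). XDH, xanthine dehydrogenase, a protein of the fat globule membrane, was at 184 FPKM in mammary, below blood cells (261) and above ileum (147). SCD, which desaturates stearic acid, was at 72.3 FPKM, with 144 in abomasum and 73.9 in frontal cortex. ACSL1, which activates long-chain fatty acids, was at 31.7 FPKM, above all others by a narrow margin (26.8 in abomasum). LPL, which releases fatty acids from plasma lipids, was at 12.7 FPKM, next to uterus at 13.4. ACSS2, which activates acetate, the main precursor of milk fatty acids in ruminants, was at 28.5 FPKM with a D of -0.32, and abomasum had 172. GPAM, which starts triglyceride synthesis, was not placed. A locus at chr26:32963414-33003349, between SHOC2 and TECTB, where the gene table lists ADRA2A and GPAM, was at 53.8 FPKM in mammary and 1.20 to 4.14 in the others.

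Adipocyte markers were divided, with a median D of 0.04 over 6 placed genes of 10, or 0.93 over the 4 placed by the strict rule, which left out CIDEC and LIPE. ADIPOQ and FABP4 had a D of at least 1 (7.58% of all compared loci). ADIPOQ, encoding adiponectin, was at 3.31 FPKM in mammary, 8.37 in abomasum and 2.81 in rumen. FABP4, the fatty acid carrier of adipocytes, was at 33.4 FPKM, with 260 in rumen. PLIN1, which coats lipid droplets, was at 6.36 FPKM, inside the range of the others (4.28 to 12.2), and LEP, encoding leptin, was at 0.126. LIPE, the hormone-sensitive lipase, was the only one of the 6 with a D of at most -1 (3.99%), at 1.28 FPKM against 1.84 to 73.9, but its interval was shared with another locus, so its level depends on a length that could not be judged. In such bulk samples, fewer cells of a type and less RNA per cell cannot be told apart.

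All 19 genes listed for fibroblasts and extracellular matrix were placed, and their median D was 0.54. A D of at least 1 was found at 4 of the 19, against 7.58% of all compared loci. Their summed FPKM was 3328 in mammary, second to uterus (10449) and above 640 to 3074 in the other 6. COL1A1 and COL3A1, the main fibrillar collagens, were at 174 and 227 FPKM in mammary, and uterus had 1233 and 2293. The network-forming COL6A2 had a D of 1.86, with 329 FPKM in mammary and 691 in uterus. DCN, encoding the proteoglycan decorin, had a D of 1.90, with 464 FPKM in mammary and 1175 in uterus. BGN, encoding biglycan, was the only one of the 19 above all others (4.01% of all compared loci), at 284 FPKM against 29.9 to 108 in the other solid tissues and 0.316 in blood cells. POSTN, encoding periostin, was the only one with a D of at most -1 (3.99% of all compared loci), at 3.03 FPKM against 120 in ileum. Endothelial genes had a median D of 0.62 over 5 placed genes, and none passed a D of 1 in either direction.

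Markers of leukocytes were present. Of 10 genes, 5 were placed, with a median D of 1.30, and 3 had a D of at least 1 (7.58% of all compared loci). CD3E, of the T cell receptor complex, was at 65.2 FPKM in mammary, 560 in blood cells, 172 in ileum and at most 13.3 in the others. CD8A, of cytotoxic T cells, was at 9.37 FPKM, with 98.5 in blood cells. CD79A, of the B cell receptor, was at 11.8 FPKM with 167 in blood cells, and MS4A1, encoding CD20 of B cells, was at 0.993 with 105. Mammary was above the median of the others at the T cell genes and CD79A and under it at MS4A1.

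MBP, GFAP and SNAP25, of nervous tissue, were at 30.1, 0.0777 and 0 FPKM in mammary, and frontal cortex had 9930, 1092 and 815. TFF1, GKN1 and PGC, secreted by the stomach, were listed at 0 in mammary, whereas GKN1 was at 22248 FPKM in abomasum. PRM1 and DDX4, of germ cells, were listed at 0, and TNP1 was at 2.38 FPKM against 1632 in testes. HBB, encoding beta-globin, was at 7.09 FPKM, with 278 in blood cells. Skeletal muscle is not one of the 8 tissues. Of its genes, ACTA1 was at 42.6, CKM at 37.5 and MYH2 at 7.49 FPKM in mammary, and testes had 63.7, 36.4 and 6.42 and rumen 57.4, 16.1 and 4.43. CKM and MYH2 were higher in mammary than in all 7 others (4.01% of all compared loci) and had a D of at least 1 (7.58%), though testes was close at both. Among the 6 muscle genes the median D was 0.71, and NEB, with a D of -0.34, and TTN were below 1 FPKM. DES, the only smooth muscle gene placed, was at 93.4 FPKM, with rumen at 3521.

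**Figure D4:**
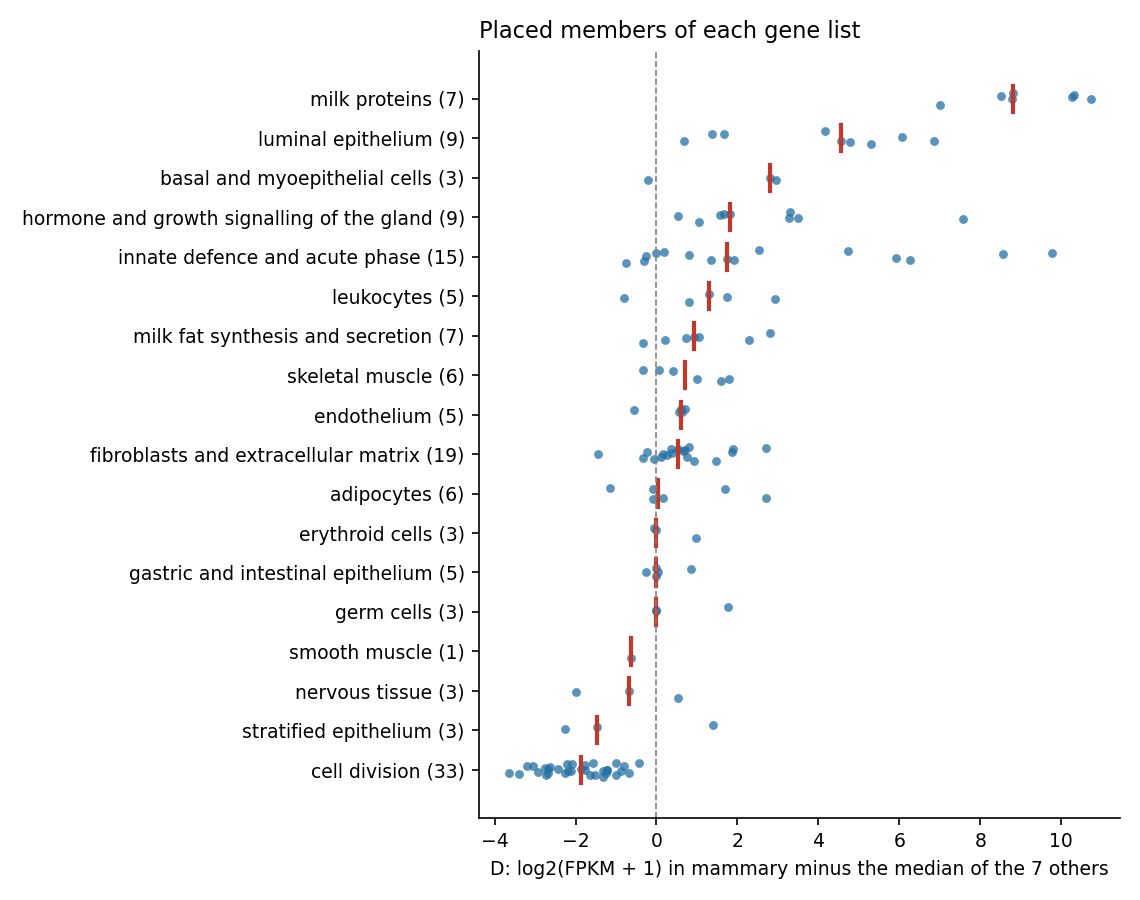
D, the log2(FPKM + 1) of mammary minus the median of the 7 others, for each placed member of the gene lists (blue points), with the median of a list as a red bar and the number of placed members in parentheses. Milk proteins lie highest, luminal epithelium next, and cell division genes lowest, and the dashed line at 0 is also the median over all compared loci.

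Mammary-high loci formed 41 runs of at least 3 loci with a D of at least 2 and gaps of at most 500 kb. The ends of a run were set by its outermost such loci, and the compared loci between them could have any D. These runs differed in kind. In some, mammary was the highest library, as in the casein region and at chr18:50299291-50840833, where SNRPA, CYP2F1, CYP2A13 and B3GNT8 were all above the 7 others. These were 4 of 23 compared loci in the chr18 run, whose median D was 0. In the largest run, chr4:113669304-114680174 with 13 such loci of 35, only 2 were above all others. It holds GIMAP8 and neighbours of immune-associated GTPases, and blood cells had the highest level at most of them, for example 240 FPKM at GIMAP8 against 17.8 in mammary. Keratins formed a pair of runs. At chr19:42356580-42490861, KRT15, KRT19, KRT14 and an unplaced locus had a D of at least 2, and none of them exceeded all other libraries, while KRT9 and KRT16 between them were listed at 0. At chr5:26958424-27842880 the run held KRT18, KRT8, KRT7, ITGB7 and an unplaced locus that was at 348 FPKM in mammary and 4258 in rumen. These were 5 of the 37 compared loci inside, whose median D was 0.

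Serine protease inhibitors formed a run at chr21:59578526-59830426. SERPINA1, encoding alpha-1-antitrypsin, was at 89.0 FPKM in mammary and 88.2 in abomasum, SERPINA11 at 14.9 and SERPINA5 at 44.6, the last with 300.2 in testes, whereas SERPINA4, SERPINA12 and SERPINA14 in the same interval were listed at 0. At chr25:2179213-2441769, PRSS22, a serine protease, was at 21.9 FPKM, LOC104975830 at 209 and ZG16B at 130, and PRSS21 was highest in testes. Inside that interval 5 of 16 compared loci had a D of at least 2. At chr25:649253-1571725, MSLN, encoding mesothelin, was at 68.6 FPKM against at most 32.3, in frontal cortex, and its neighbour MSLNL was at 14.1 against at most 0.178. The tryptase gene TPSB2, of mast cells, was at 51.2 FPKM in the same run, with 41.8 in uterus. A D of at least 2 was found at 7 of the 56 compared loci of this run. The run at chr16:36963321-37143040 held no compared loci besides the 3 that the rule for a run requires. These were the lymphotactins XCL2 and XCL1, at 14.9 and 16.8 FPKM, and DPT, a matrix protein, at 38.6. The run that ends with LTF (chr22:53161302-53560312) held 13 compared loci, of which PRSS45, PRSS46P and CRIPTO were listed at 0 in mammary. Its other 2 loci with a D of at least 2 were unplaced, at 11.2 and 15.4 FPKM, each in an interval shared with another locus.

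Fewer loci were low in mammary. A D of at most -2 with a median FPKM of at least 1 in the others was found at 140 loci (0.608%), and 12 loci (0.0521%) were at least 1 (log2) below the lowest of the 7 others. Of the 15 loci with the lowest D, 12 were listed at 0 in mammary and 10 shared their interval. Among those with an interval of their own, CKMT1A, a mitochondrial creatine kinase, was at 2.31 FPKM in mammary and 0.361 to 703 in the others, with a median of 164. C19H17orf97 was listed at 0 against a median of 86.7. An unplaced locus at chr19:49329691-49337996 was at 591 FPKM in mammary and at 1783 to 22262 in the others, a D of -4.41. H2BC5, a histone gene, was at 1.84 FPKM against 7.09 to 73.3. TPMT, a thiopurine methyltransferase, was at 6.64 FPKM against 20.1 to 217. BDH1, a mitochondrial enzyme of ketone body metabolism, was at 0.488 FPKM against 3.096 in the lowest other library and 632 in rumen. TCF21, a transcription factor of mesenchyme, was listed at 0, with a median of 8.57 in the others. HPGD, which inactivates prostaglandins, was at 1.24 FPKM against a median of 18.6.

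Genes of cell division were among the low loci. A list of 45 such genes was drawn up after this had been seen, so it is a description of these values and no independent evidence. Of the 33 placed members, 28 had a D of at most -1, against 3.99% of all compared loci, and none had a D of at least 1. At 16 members D was at most -2 with a median of at least 1 FPKM in the others, against 0.608% of all compared loci, and 10 were lower in mammary than in each of the 7 others, against 3.78% of all compared loci. The median D was -1.87. Their summed FPKM was 89.4 in mammary, the lowest of the libraries, followed by 107 in frontal cortex, 222 in uterus, 303 in rumen and 421 in blood cells, and by 661 in ileum, 999.8 in abomasum and 1441 in testes. MKI67, the antigen Ki-67 of cycling cells, was at 0.602 FPKM in mammary, 0.0253 in frontal cortex, 0.322 in uterus and 3.23 to 30.3 in the others. CDC20, an activator of the anaphase-promoting complex, was at 0.3997 FPKM in mammary, 0.0904 in frontal cortex, 1.55 in uterus and 5.35 to 77.0 in the others. CCNB1, a cyclin of mitosis, was at 0.873 FPKM in mammary, 0.0596 in frontal cortex and 4.57 to 52.9 in the others. TOP2A, the topoisomerase of condensing chromosomes, was at 1.37 FPKM in mammary, 0.0285 in frontal cortex and 1.21 in uterus. At MKI67, CDC20 and TOP2A the 3 lowest libraries were mammary, uterus and frontal cortex, whereas uterus was the highest at CCNB1. Frontal cortex was the lowest library at 22 of the 33 genes and mammary at 10. SPC24, a kinetochore subunit, had the lowest D of the list, -3.66, with 0.832 FPKM in mammary and 1.84 to 54.7 in the others. EZH2, a histone methyltransferase, was at 2.49 FPKM in mammary, 3.19 in uterus and 105 in testes, and KIF22, a mitotic kinesin, was at 0.753 against 1.70 to 49.7. Genes of DNA replication were also below the median of the others. MCM2, MCM6, MCM3 and MCM5, of the replicative helicase, had a D of -1.24, -1.21, -0.79 and -0.69, and GINS2, which joins that helicase, had a D of -1.64. RRM2 and RRM1, the subunits of ribonucleotide reductase, had a D of -1.56 and -0.42. Of the 33 genes, 18 were under 1 FPKM in mammary, and mammary had the lowest depth of the 8 libraries. Some of the 10 lowest values rest on small differences between such levels, as at CCNB2 (0.326 FPKM against 0.433 in frontal cortex), AURKB (0.586 against 0.879 in frontal cortex) and KIF11 (0.205 against 0.289 in uterus), and MYBL2, another of the 10, shared its interval. The part of depth in these low values was not tested.

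**Figure D5:**
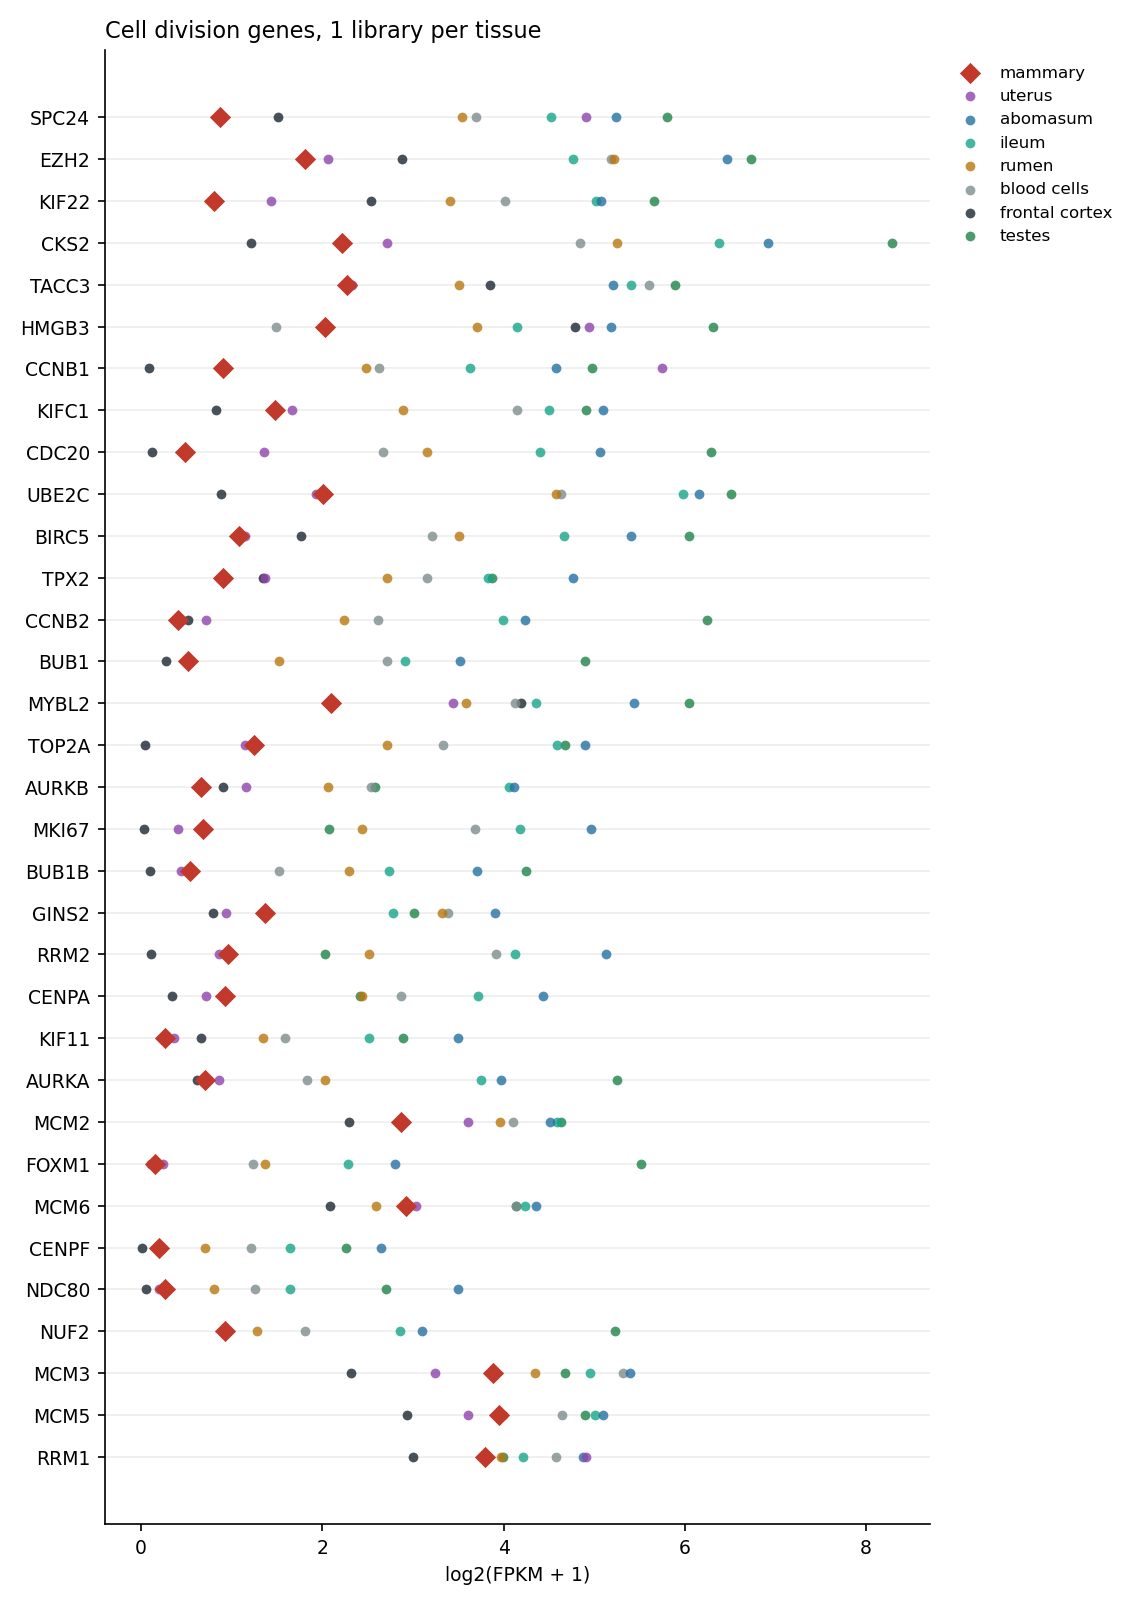
log2(FPKM + 1) in the 8 libraries for the 33 placed cell division genes, ordered by D from SPC24 at the top to RRM1, with mammary as a red diamond. Mammary lies at the low end of most rows, often with frontal cortex and uterus, and testes, abomasum and ileum lie at the high end.

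Of the 17446 compared loci with an FPKM of at least 1 in some library, mammary differed by 1 (log2) or more from uterus at 3489, from ileum at 3602, from abomasum at 4367, from rumen at 5157, from blood cells at 5846, from frontal cortex at 6742 and from testes at 9097. These numbers describe pairs of single libraries that differ in depth. No single tissue stood next to mammary at the loci where mammary was highest. Among the 193 loci at least 1 (log2) above all others, the next library was uterus at 31, testes at 30, rumen at 30, abomasum at 28, frontal cortex at 26, ileum at 17 and blood cells at 12, beside the 19 at which all others were at 0. At the 565 loci with a D of at least 2, mammary held rank 1 of 8 at 268, rank 2 at 189, rank 3 at 96 and rank 4 at 12. Where it was not first, blood cells were the highest library at 62 loci, rumen at 54 and uterus at 40.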

How the data were processed

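The authors extracted total RNA with TRIZOL, prepared TruSeq libraries, sequenced single-end reads on a HiSeq2000, aligned them to UMD3.1 with TopHat2 2.0.13 and ran Cufflinks with default settings. The deposited table holds FPKM per library, which the authors' software scales between libraries. Its columns of fold changes, test statistics, p-values and q-values hold the authors' own comparisons and were not used. All values of a library were the same in every pair.

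FPKM was read for each of the 8 libraries, and log2(FPKM + 1) was compared without a test, in Python 3.11.15 with numpy 2.4.6 and pandas 2.3.3. Loci under 150 bases, 2 mitochondrial loci and 13 loci with a failed estimate were left out. Relative depth was recovered from short loci of 88 to 140 bases without an identifier, 50 of them in mammary, whose mammary values were whole reads within 0.03 at 100%. The calls were tested on simulated data.

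A gene was placed on a locus of the same chromosome where its span agreed within 5% and at least 2 of its 6 nearest genes were matched (the strict rule), which placed 6023 genes, and 297 against a wrong chromosome. Looser steps (a wider span tolerance with more neighbours, a shared end, or an end beside 1 placed neighbour) were added after the data had been seen. Loci were named by fixed rules: the 15 most abundant, the 15 with the largest D, the largest gap and the lowest D, those lowest in mammary, the runs, and the placed list members. Further single genes and unplaced loci, among them APOE, the genes of large or low D ranked among loci with an interval of their own and the locus between SHOC2 and TECTB, were picked with their levels in view. The members and lists were chosen with earlier results of these data known.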

Additional observations from a re-analysis of the deposited data

Results flagged for a closer look

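Loci without an identifier were left out of the comparisons. Of the 11003 that span at least 150 bases, 70 lay at least 1 (log2) above the next highest library in mammary. This is a smaller share than the 0.838% of all compared loci with a like gap. Of the 70, 60 have an interval of their own, and 56 of these also exceed the floor of 3 reads for their span in mammary. The 0.838% was not filtered in these 2 ways. The mammary FPKM of the 56 loci ranged from 3.02 to 560, with a median of 7.51, and 10 of them were at 0 in the 7 others. The highest was at chr29:44278301-44288470, with 560 FPKM in mammary, 251 in blood cells and 52.4 to 179 in the rest. Another, at chr20:39140879-39146375, had 32.9 FPKM in mammary and 8.58 in rumen, with at most 1.87 elsewhere. At chr22:15652699-15670247 mammary had 27.8 FPKM, against at most 7.30, in frontal cortex. Of the 56 loci, 33 spanned under 1000 bases.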

How the results depend on the processing

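No paired analysis was possible because there is a single library for every tissue. With a pseudocount of 0.1 instead of 1, the loci with a D of at least 2 numbered 992 instead of 565, those with a D of at most -2 453 instead of 140, those lowest in mammary 64 instead of 12 and the runs 97 instead of 41, and the list medians were -2.19 for nervous tissue, -4.01 for stratified epithelium and -2.84 for cell division. With all loci of at least 150 bases, the numbers were 894, 236, 21 and 84 runs. With folds larger by 1 (log2), 239, 30, 61 (highest in mammary, instead of 193) and 1 remained past the threshold. The loci lowest in mammary numbered 22 without testes, 19 without frontal cortex, 27 without uterus and 31 without blood cells. Among loci with an interval of their own, a setting chosen with the data already seen, 5 were lowest in mammary and there were 22 runs. Gaps of at most 200 kb gave 26 runs. The 50 most abundant loci held 29.3%, and with mitochondrial loci the 10 most abundant held 22.4%. The single smooth muscle gene moved from -0.63 to -0.48 after rescaling by the median ratio and to -0.80 without uterus. The other counts and list medians, including the medians of the milk protein, luminal and hormone lists, moved by no more than 1.5 times (counts, with the loci lowest in mammary at 18 without rumen and 8 after rescaling to the same summed FPKM) or by less than 1 SD over members (medians), and the cause of the moves was not tested. Lists with under 3 members placed by the strict rule were not recomputed on it, and it moved the medians of milk fat genes to 0.58, adipocytes to 0.93 and skeletal muscle to 0.42. At 4.41 reads per FPKM and 1000 bases, small differences between levels under 1 FPKM were not detectable for transcripts of that length.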

Other observations

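Loci under 150 bases were kept apart because a few reads give them very high FPKM. Of 1828 such loci with an identifier, 6 were above 0 in mammary and 4 of these were at 0 in every other library. One of them, at chrX:18179221-18179312, was listed at 4142 FPKM in mammary. None of the 6 exceeded the floor of 3 reads for its length.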
